A study of Homo sapiens with 24 samples.

Results

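The subject here is the DNA mismatch repair genes MSH6, MSH3, PMS1, PMS2 and MLH3, described across 2 human T-cell acute lymphoblastic leukaemia lines. They were chosen by name as MutS and MutL genes, and all 5 had a row among the 15862 genes of the expression table. Of the other MutS genes MSH4 is given as a relative, and the remaining MutS and MutL subunits were not analysed here. The 24 RNA-seq libraries formed 5 groups: LOUCY treated for 24 h with 250 nM JQ1 (n = 4), with 500 nM I-BET151 (n = 4) or with 0.05% DMSO (n = 4), untreated LOUCY (n = 6) and untreated JURKAT (n = 6). LOUCY derives from leukaemia of an early T-cell precursor kind, and JURKAT, a line of more mature T-cell character, is known to be deficient in mismatch repair. JQ1 and I-BET151 are inhibitors of BET proteins, which bind acetylated histones, and DMSO is their solvent. All cells were grown in the same serum-supplemented medium. With 1 line of each kind, a difference between them concerns these lines alone. Every group was divided evenly between 2 independent experiments. The labels do not say that the numbered libraries of an experiment were separate cultures, so p-values measure the spread between these libraries, which may in part be technical.

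Mismatch repair corrects base mispairs and small loops that DNA polymerases leave behind. A MutS dimer recognises the error and a MutL dimer is then recruited to nick the new strand, after which the exonuclease EXO1, the clamp PCNA and a DNA polymerase replace the tract. MSH6 and MSH3 are alternative MutS subunits, with MSH6 serving single mispairs and small loops and MSH3 larger loops. PMS2, PMS1 and MLH3 are alternative MutL subunits: PMS2 carries the nicking activity of the main complex, MLH3 acts mostly in meiotic recombination, and PMS1 has no well defined enzymatic activity. Loss of the pathway leaves microsatellites unstable and makes cells tolerant of some methylating drugs and thiopurines, which are used in leukaemia.

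Start sites are shown first. The sequences are those of the reference genome, the same for both lines, and carry no information on differences between them. For MSH6, PMS1, PMS2 and MLH3 a 30-base stretch of the RefSeq start region (GRCh38.p14) is given, written 5′ to 3′ on the gene's own strand. Capitals mark, for each of these genes, the match of a searched motif that is rarest among all 27305 promoter windows, each running from 250 bases before to 50 bases after a gene's start. The MSH6 stretch is chr2:47783137-47783166 (+) and the PMS1 stretch is chr2:189784386-189784415 (+). The PMS2 stretch is chr7:6009192-6009221 (-) and the MLH3 stretch is chr14:75051503-75051532 (-).
MSH6: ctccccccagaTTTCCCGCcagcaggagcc
PMS1: cgctgccagcggATTGGctgcgagcagcgc
PMS2: cccaggctcttTGACGTCAcgaagtcgacc
MLH3: aacaactggtGCGCATGCGCactggtgtct

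The motifs were searched on both strands. The E2F-type motif TTTCCCGC, at position 4 of MSH6 counted from its start, occurred in 1.66% of all promoter windows. Its relative TTTGGCGC, at position -107 of MSH3, occurred in 0.659%. The cAMP-response motif TGACGTCA, at position -104 of PMS2, occurred in 1.98%, and the palindromic NRF1-type motif, spelled by the capitals at position -55 of MLH3, in 1.36%. PMS1 held none of these 4 motifs, and its capitals show a CCAAT box read as ATTGG, at position -52, which 35.7% of windows held. MSH6 and PMS2 also had CCAAT boxes, 1 and 3 of them, against 2 in PMS1. The GC box GGGCGG was found 5 times in MSH6, 4 times in MSH3, 2 times in PMS2 and 1 time in PMS1, and 44.6% of windows held it. Neighbouring GC boxes shared 1 base in MSH3 and in PMS2, and none of the capitalised motifs overlapped another match. The E-box CACGTG (7.43% of windows) and the letters TATAAA (3264 windows) were not found in the 5 windows. By GENCODE exons, the MSH6, PMS1 and MLH3 stretches lay in an exon of their own gene and the PMS2 stretch in no exon. A match of letters is a description and shows no binding.

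Reads recovered from the deposited values summed to 4381134 to 7074198 per library over the listed genes, and 15342 to 15712 genes were above 0. Values are RPKM, read counts that the authors scaled to gene length and to library size. None of the 8 T-cell markers was at 0 throughout a group, but CD2 and CD5 were near 0 in LOUCY. Means in the LOUCY groups were at most 0.2647 RPKM for CD2 and 0.3046 RPKM for CD5, against 61.91 and 6.598 RPKM in JURKAT. CD3D had the highest mean of the 8 in each group, at 1531 RPKM in untreated LOUCY. The 8 markers summed to 1040 to 1100 RPKM with JQ1, 820 to 1190 RPKM with I-BET151 and 1600 to 2030 RPKM with DMSO. In untreated LOUCY they summed to 1900 to 2480 RPKM and in JURKAT to 1540 to 2020 RPKM. The sum was thus lower in every inhibitor library than in every DMSO library, and its part in the results with inhibitors was not tested. The 3 LOUCY-side markers HHEX, LYL1 and LMO2 summed to 98.1 to 174 RPKM in untreated LOUCY and 0.202 to 0.694 RPKM in JURKAT, while TAL1, CD1B and CD1D summed to 0.298 to 0.645 RPKM in untreated LOUCY and 167 to 204 RPKM in JURKAT. B-cell, monocyte and fibroblast markers summed to at most 2.12 RPKM in any library. The 2 listed epithelial keratins KRT8 and KRT18 summed to 0.00 to 0.403 RPKM in untreated LOUCY and 4.21 to 5.67 RPKM in JURKAT, and their part in any difference between the lines was not tested. HEXIM1, known to rise when BET proteins are inhibited, averaged 53.1 ± 2.72 RPKM with JQ1, 50.8 ± 7.05 RPKM with I-BET151 and 19.7 ± 2.21 RPKM with DMSO (SD, n = 4 each). In 3 libraries expression, taken relative to the mean of the library's own group, fell steeply with the GC content of genes. These were I-BET151 replicate 1, DMSO replicate 1 and untreated LOUCY replicate 2, all of experiment 2. Their slopes were -0.332, -0.303 and -0.238 on the log2 scale per 10 points of GC, against -0.132 to 0.167 in the other 21 libraries. Each slope is relative to its group, so it gives no absolute comparison between groups. Results that rest on these 3 libraries are also given when these are left out.

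The first comparison set untreated LOUCY against untreated JURKAT. MSH6 was 24.1-fold higher in LOUCY, the widest gap among the 5 genes, and MSH3 was 1.88-fold higher. MLH3 was also higher in LOUCY, at low levels. PMS1 and PMS2 were each lower in LOUCY by amounts that did not pass the test. Among all 11978 genes tested, 73.1% passed in either direction, 35.5% as higher in LOUCY and 37.5% as lower, so a called difference between these lines is the common case and the count of members called carries little information.

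MSH6 ranged from 39.9 to 57.3 RPKM in untreated LOUCY, with a median of 47.7 RPKM, and from 1.26 to 2.93 RPKM in untreated JURKAT, with a median of 1.94 RPKM. The lowest LOUCY library lay far above the highest JURKAT library, so the groups did not overlap. The means were 47.8 ± 6.70 RPKM in LOUCY and 1.98 ± 0.545 RPKM in JURKAT (SD, n = 6 each). On the log2(RPKM + 1) scale the difference was 4.04 (SE 0.13), with a limma adjusted p of 2.33e-13. Behind these values were 1027 to 1524 reads per library in LOUCY and 28 to 77 reads in JURKAT. MSH6 stood at percentile 88.1 of the listed genes in untreated LOUCY and at percentile 38.8 in JURKAT.

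MSH3 ranged from 11.99 to 16.8 RPKM in untreated LOUCY, with a median of 14.4 RPKM, and from 5.70 to 10.1 RPKM in JURKAT, with a median of 7.11 RPKM. These groups did not overlap either, though the gap between them was small next to that of MSH6. The means were 14.4 ± 1.55 RPKM in LOUCY and 7.69 ± 1.81 RPKM in JURKAT (SD, n = 6 each), a log2 difference of 0.85 (SE 0.11; limma adjusted p = 2.94e-06). The ratio of MSH6 to MSH3, the alternative partners in MutS dimers, averaged 3.39 ± 0.839 in untreated LOUCY and 0.261 ± 0.0605 in JURKAT (SD, n = 6 each). RNA of MSH6 thus exceeded that of MSH3 in every untreated LOUCY library, where the lowest ratio was 2.38, and fell short of it in every JURKAT library, where the highest was 0.353.

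MLH3 was the lowest of the 5 genes in both lines. It ranged from 1.26 to 2.55 RPKM in untreated LOUCY, with a median of 2.13 RPKM, and from 0.163 to 0.410 RPKM in JURKAT, with a median of 0.293 RPKM. LOUCY libraries held 59 to 124 reads of the gene and JURKAT libraries 6 to 19. The log2 difference was 1.21 (SE 0.10; limma adjusted p = 3.03e-08), which understates the 6.99-fold ratio of the means because 1 RPKM was added before the log. MLH3 passed the filter of 1 RPKM in 4 libraries through its LOUCY values alone. Under this filter it could only be tested because it differed, and its call is no separate evidence.

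PMS1 ranged from 12.4 to 25.2 RPKM in untreated LOUCY, with a median of 14.6 RPKM, and from 15.4 to 25.8 RPKM in JURKAT, with a median of 20.2 RPKM. The groups overlapped over most of their range. The log2 difference was -0.30 (SE 0.14; 95% interval -0.59 to -0.0061; limma adjusted p = 0.0617), which missed the threshold. In experiment 1 alone PMS1 passed at -0.50 (limma adjusted p = 0.0116), and in experiment 2 alone it did not, at -0.090 (limma adjusted p = 0.714). The difference between the experiments itself was 0.41 and did not pass (limma adjusted p = 0.706). PMS1 became called without the LOUCY library of steep GC slope (log2 difference -0.39; limma adjusted p = 0.0125) or without JURKAT replicate 1 of experiment 2 (-0.37; limma adjusted p = 0.0207). It also passed with libraries scaled to the same median (-0.38; limma adjusted p = 0.0249) and with voom on the recovered reads (-0.39; limma adjusted p = 0.0137). In these settings the median log2 difference of all genes tested moved as well, from -0.017 to -0.099 with median scaling and to -0.118 with voom.

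PMS2 ranged from 2.81 to 6.20 RPKM in untreated LOUCY, with a median of 4.54 RPKM, and from 4.84 to 6.67 RPKM in JURKAT, with a median of 5.36 RPKM. The highest JURKAT library was above every LOUCY library, but the groups overlapped. The log2 difference was -0.28 (SE 0.14; 95% interval -0.57 to 0.016; limma adjusted p = 0.0812). PMS2 passed in experiment 2 alone, at -0.50 (limma adjusted p = 0.0397), and not in experiment 1 alone, at -0.051 (limma adjusted p = 0.804). The interaction with the experiment did not pass for any of the 5 genes, and 0.0250% of all genes passed it. Leaving out LOUCY replicate 3 of experiment 1, LOUCY replicate 3 of experiment 2 or JURKAT replicate 1 of experiment 1 brought PMS2 past the threshold, at log2 differences of -0.35, -0.34 and -0.34 and limma adjusted p-values of 0.0363, 0.0393 and 0.0473. PMS2 also passed with libraries scaled to the same median (-0.36; limma adjusted p = 0.0239) and with voom on the recovered reads (-0.45; limma adjusted p = 0.0234). As for PMS1, the median of all genes moved down in these settings, to -0.099 and -0.118.

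**Figure D1:**
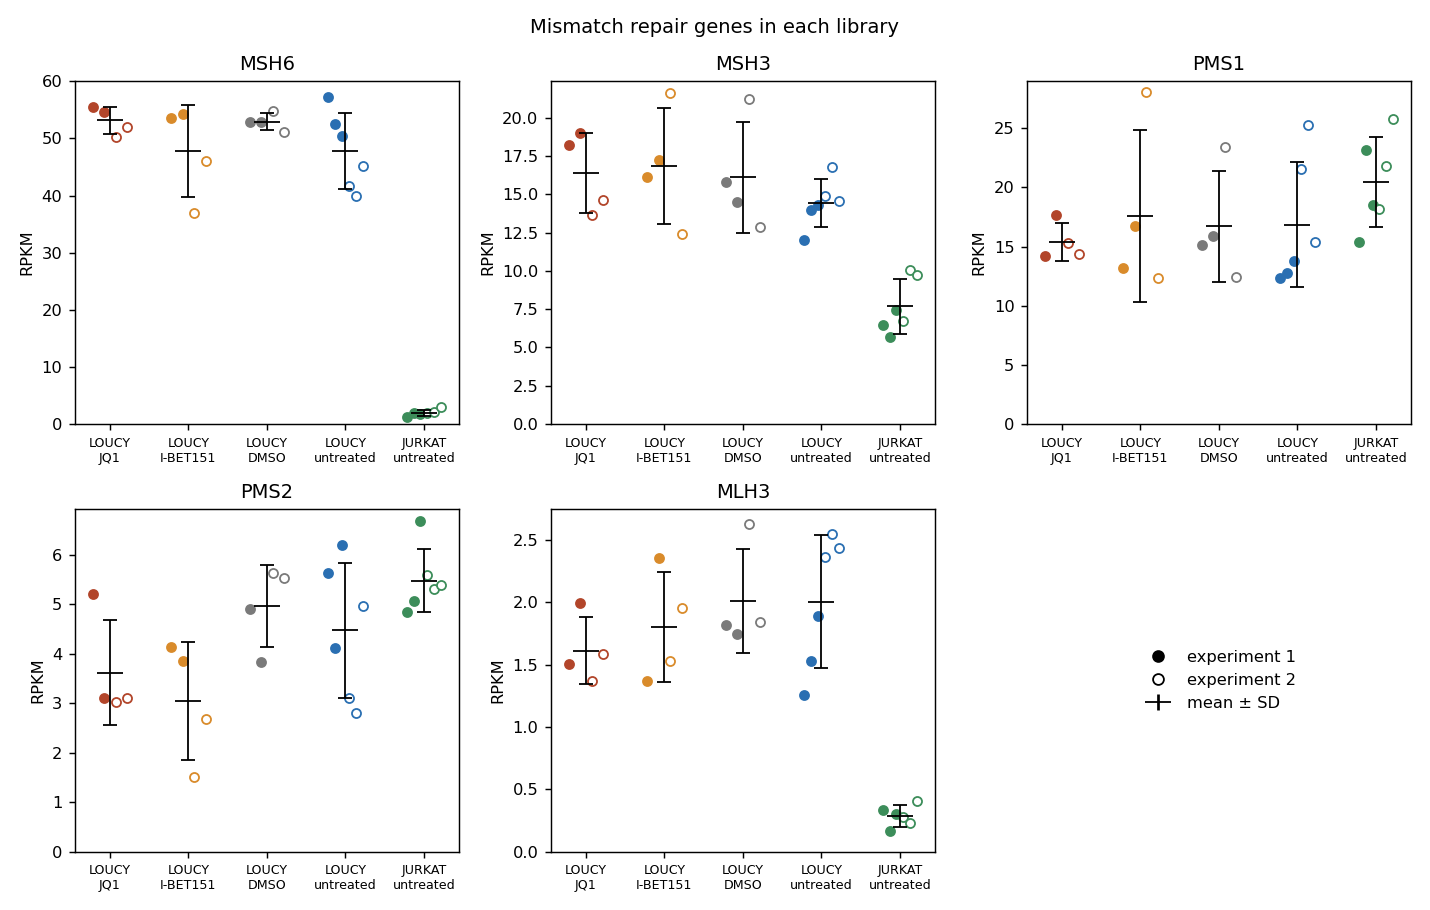
RPKM of the 5 mismatch repair genes in each library, by group, with filled points for experiment 1, open points for experiment 2 and bars for the mean ± SD. MSH6 lay at 37.0 to 57.3 RPKM in the LOUCY groups and at 1.26 to 2.93 RPKM in JURKAT, while PMS1 and PMS2 overlapped between the lines.

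The make-up of the 5-gene sum also differed between the lines. Summed RPKM of the 5 genes averaged 85.6 ± 2.31 in untreated LOUCY and 35.9 ± 5.52 in JURKAT (SD, n = 6 each). MSH6 made up 55.8% ± 7.19 of that sum in untreated LOUCY and 5.45% ± 0.723 in JURKAT. PMS1 made up 19.7% ± 6.18 in untreated LOUCY and 56.8% ± 3.92 in JURKAT, where it was the most abundant of the 5. The ratio of PMS2 to PMS1, both MutL subunits, averaged 0.301 ± 0.147 in untreated LOUCY and 0.276 ± 0.0603 in JURKAT, with ranges that overlapped. These libraries are bulk samples, so fewer cells with a transcript and less of it per cell cannot be told apart, and RPKM cannot show a shift in the total RNA of a cell.

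Within untreated LOUCY some genes divided by experiment. MSH6 was at 50.4 to 57.3 RPKM in experiment 1 and at 39.9 to 45.1 RPKM in experiment 2. MLH3 ran the other way, at 1.26 to 1.89 RPKM in experiment 1 and at 2.36 to 2.55 RPKM in experiment 2. PMS1 was likewise lower in experiment 1, at 12.4 to 13.8 RPKM, than in experiment 2, at 15.4 to 25.2 RPKM. MSH3 was lower in experiment 1 as well, at 11.99 to 14.3 RPKM, than in experiment 2, at 14.6 to 16.8 RPKM. These 4 of the 5 genes did not overlap between the experiments, as was so for 31.7% of the 11978 genes tested between the lines. The GC slopes of these libraries divided by experiment too, at 0.064 to 0.146 in experiment 1 and -0.238 to 0.055 in experiment 2. Their part in the division of the genes was not tested. The experiment term of the model is one shift common to all groups, and the shift of MSH6 was not common: in JURKAT it averaged 1.68 RPKM in experiment 1 and 2.29 RPKM in experiment 2, and with DMSO 52.9 RPKM in each. The interaction with the experiment between the lines was -0.62 for MSH6 (unadjusted p = 0.00772, limma adjusted p = 0.425) and 0.39 for MLH3 (unadjusted p = 0.0418, limma adjusted p = 0.593). For MSH6 the LOUCY minus JURKAT difference was 4.35 in experiment 1 and 3.73 in experiment 2 on the log2 scale, both past the threshold (limma adjusted p = 6.08e-09 and 6.56e-08). For MSH3 it was 0.94 in experiment 1 and 0.75 in experiment 2 (limma adjusted p = 0.000136 and 0.0034).

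**Figure D2:**
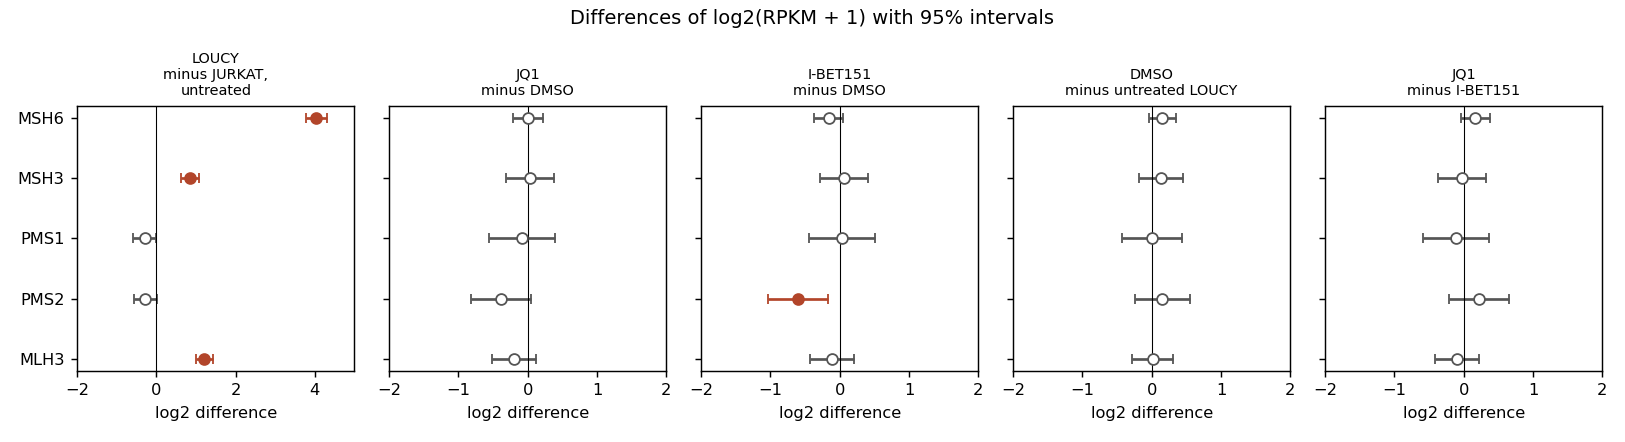
Differences of log2(RPKM + 1) for the 5 genes in the 5 comparisons, with 95% intervals and filled red points where the limma adjusted p was under 0.05. MSH6 reached 4.04 between the lines, and among the comparisons within LOUCY the interval lay apart from 0 in 1 case, PMS2 with I-BET151.

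Treatment with JQ1 was compared with DMSO to see how the genes responded to BET inhibition. None of the 5 genes passed the test, against 26.0% of 11411 genes tested, 10.1% as higher and 15.9% as lower. By limma 0 of the 5 also fell under an unadjusted p of 0.05, a level that 4160 of all genes reached. MSH6 had 55.6 and 54.7 RPKM in experiment 1 and 50.3 and 52.0 RPKM in experiment 2 with JQ1, against 53.0 and 52.9 RPKM in experiment 1 and 54.7 and 51.1 RPKM in experiment 2 with DMSO. The groups overlapped, and the log2 difference was 0.0055 (95% interval -0.21 to 0.22). MSH3 had 18.2 and 19.0 RPKM in experiment 1 and 13.7 and 14.6 RPKM in experiment 2 with JQ1, against 15.8 and 14.5 RPKM in experiment 1 and 21.2 and 12.9 RPKM in experiment 2 with DMSO. The log2 difference was 0.033 (95% interval -0.32 to 0.38), with JQ1 libraries above both DMSO libraries in experiment 1 and between them in experiment 2.

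Among the MutL genes, PMS1 had 14.2, 17.7, 15.3 and 14.4 RPKM with JQ1, against 15.1, 15.9, 23.4 and 12.4 RPKM with DMSO. MLH3 had 1.50, 1.99, 1.37 and 1.58 RPKM with JQ1, against 1.82, 1.74, 2.63 and 1.84 RPKM with DMSO. Both sets overlapped, with log2 differences of -0.080 (95% interval -0.56 to 0.40) for PMS1 and -0.20 (95% interval -0.52 to 0.12) for MLH3. PMS2 had 5.21, 3.11, 3.03 and 3.11 RPKM with JQ1, against 4.91, 3.83, 5.63 and 5.53 RPKM with DMSO. In 3 of the 4 JQ1 libraries PMS2 was below every DMSO library, and in the remaining one it was above 2 of them. The log2 difference was -0.39 (SE 0.21; 95% interval -0.82 to 0.049; limma adjusted p = 0.189). No interaction with the experiment passed for the 5 genes, and 0.00876% of all genes passed.

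I-BET151 was compared with the same DMSO libraries, so the comparisons of the inhibitors with DMSO share their controls. PMS2 was the only one of the 5 genes called, as lower, and 26.3% of all 11411 genes tested were called, 10.3% as higher and 15.9% as lower. PMS2 had 4.13 and 3.86 RPKM in experiment 1 and 1.52 and 2.69 RPKM in experiment 2 with I-BET151, against 4.91 and 3.83 RPKM in experiment 1 and 5.63 and 5.53 RPKM in experiment 2 with DMSO. The groups overlapped in experiment 1 and stood apart in experiment 2. The means were 3.05 ± 1.20 RPKM with I-BET151 and 4.97 ± 0.828 RPKM with DMSO (SD, n = 4 each), a log2 difference of -0.60 (SE 0.21; 95% interval -1.04 to -0.17; limma adjusted p = 0.0379). The I-BET151 libraries held 25 to 64 reads of PMS2 and the DMSO libraries 56 to 107.

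The PMS2 call rested on few libraries. In experiment 1 alone the log2 difference was -0.098 (limma adjusted p = 0.785), and in experiment 2 alone it was -1.11 (limma adjusted p = 0.0494). The interaction with the experiment was -1.01 and did not pass after adjustment over all genes (unadjusted p = 0.0137, limma adjusted p = 1). The lowest value, 1.52 RPKM, came from the I-BET151 library of steepest GC slope, and without it the log2 difference was -0.43 (limma adjusted p = 0.132). Without DMSO replicate 1 or replicate 2 of experiment 2 it was -0.49 or -0.50 (limma adjusted p = 0.112 and 0.12), and leaving out all 3 libraries of steep slope gave -0.34 (limma adjusted p = 0.216). The call was also lost with no filter on low values (limma adjusted p = 0.0563), with no experiment term (limma adjusted p = 0.0654) and with voom on the recovered reads (log2 difference -0.77; limma adjusted p = 0.056). With each library's GC trend removed relative to its group, an adjustment chosen after seeing the data that leaves the group means in place and by its construction narrows the spread within groups, the difference was -0.60 (limma adjusted p = 0.048).

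The other genes were not called with I-BET151. MSH6 had 53.6, 54.2, 37.0 and 46.1 RPKM with I-BET151, against 53.0, 52.9, 54.7 and 51.1 RPKM with DMSO. Both I-BET151 libraries of experiment 2 were below every DMSO library and both of experiment 1 were within the DMSO range, for a log2 difference of -0.16 (95% interval -0.37 to 0.051; limma adjusted p = 0.264). MSH3 had 16.1, 17.2, 21.6 and 12.4 RPKM with I-BET151, against the DMSO values above, for a log2 difference of 0.059 (95% interval -0.29 to 0.41). PMS1 had 13.2, 16.7, 28.1 and 12.4 RPKM with I-BET151 (log2 difference 0.035; 95% interval -0.44 to 0.51). MLH3 had 1.37, 2.35, 1.53 and 1.96 RPKM with I-BET151 (log2 difference -0.11; 95% interval -0.43 to 0.21). All 3 overlapped with DMSO, and none passed the interaction with the experiment, which 0.00876% of all genes passed.

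JQ1 and I-BET151 are structurally distinct inhibitors and were given at different concentrations, 250 nM and 500 nM, so their values are set side by side. None of the 5 genes was called between them by limma, and the share of all genes called was 0.00%, with 531 of 11411 genes under an unadjusted p of 0.05. The log2 differences, JQ1 minus I-BET151, were 0.17 for MSH6 (95% interval -0.045 to 0.38), -0.026 for MSH3 (-0.37 to 0.32) and -0.11 for PMS1 (-0.59 to 0.36). They were 0.22 for PMS2 (-0.22 to 0.65) and -0.093 for MLH3 (-0.41 to 0.23). These intervals leave room for differences of up to 0.65 on the log2 scale in PMS2, so like action was not shown. The interaction with the experiment passed for 0.00% of all genes.

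DMSO was also set against untreated LOUCY, a comparison that carries the solvent and the handling together. None of the 5 genes was called by limma, and 0.175% of all genes were (0.0263% as higher, 0.149% as lower), with 1100 of 11411 under an unadjusted p of 0.05. The log2 differences were 0.15 for MSH6 (95% interval -0.040 to 0.35), 0.13 for MSH3 (-0.19 to 0.45), 0.0013 for PMS1 (-0.43 to 0.44), 0.15 for PMS2 (-0.24 to 0.55) and 0.012 for MLH3 (-0.28 to 0.30). For MSH6 the 4 DMSO libraries, at 51.1 to 54.7 RPKM, lay inside the untreated range of 39.9 to 57.3 RPKM. The interaction with the experiment passed for 0.00876% of all genes and for none of the 5.

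Set side by side over the 5 groups, MSH6 averaged 53.1 ± 2.41 RPKM with JQ1, 47.7 ± 8.04 RPKM with I-BET151, 52.9 ± 1.49 RPKM with DMSO, 47.8 ± 6.70 RPKM in untreated LOUCY and 1.98 ± 0.545 RPKM in JURKAT (SD, n = 4, 4, 4, 6 and 6). In order of level, JQ1 came before DMSO, untreated LOUCY, I-BET151 and JURKAT, and only the last step exceeded the SDs of both its groups. MSH3 averaged 16.4 ± 2.62 RPKM with JQ1, 16.9 ± 3.79 RPKM with I-BET151, 16.1 ± 3.62 RPKM with DMSO, 14.4 ± 1.55 RPKM in untreated LOUCY and 7.69 ± 1.81 RPKM in JURKAT. Its order was I-BET151, JQ1, DMSO, untreated LOUCY and JURKAT, again with a step beyond the SDs to JURKAT alone. MLH3 averaged 1.61 ± 0.269 RPKM with JQ1, 1.80 ± 0.444 RPKM with I-BET151, 2.01 ± 0.415 RPKM with DMSO, 2.00 ± 0.531 RPKM in untreated LOUCY and 0.287 ± 0.0853 RPKM in JURKAT. Its order was DMSO, untreated LOUCY, I-BET151, JQ1 and JURKAT, with the same single step beyond the SDs. PMS1 averaged 15.4 ± 1.60 RPKM with JQ1, 17.6 ± 7.25 RPKM with I-BET151, 16.7 ± 4.71 RPKM with DMSO, 16.8 ± 5.30 RPKM in untreated LOUCY and 20.5 ± 3.79 RPKM in JURKAT. PMS2 averaged 3.62 ± 1.06 RPKM with JQ1, 3.05 ± 1.20 RPKM with I-BET151, 4.97 ± 0.828 RPKM with DMSO, 4.47 ± 1.36 RPKM in untreated LOUCY and 5.48 ± 0.639 RPKM in JURKAT. For PMS1 and PMS2 JURKAT stood highest, and no step between neighbours in level exceeded the SDs of both groups.

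GC content moved with several of these values inside LOUCY. The transcripts of PMS1 and MSH3 are poor in GC, at 39.2% and 40.9%, while MLH3 has 44.4%, PMS2 45.4% and MSH6 48.6%. PMS1 was the highest of its group in each of the 3 libraries of steep GC slope, at 28.1 RPKM with I-BET151, 23.4 RPKM with DMSO and 25.2 RPKM in untreated LOUCY, and so was MSH3, at 21.6, 21.2 and 16.8 RPKM. PMS2 and MSH6 were the lowest of their group in the I-BET151 and the untreated library, and the highest in the DMSO library. With the GC trend removed in the same way, PMS1 passed between the lines at an unchanged log2 difference of -0.30 (limma adjusted p = 0.00942).

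**Figure D3:**
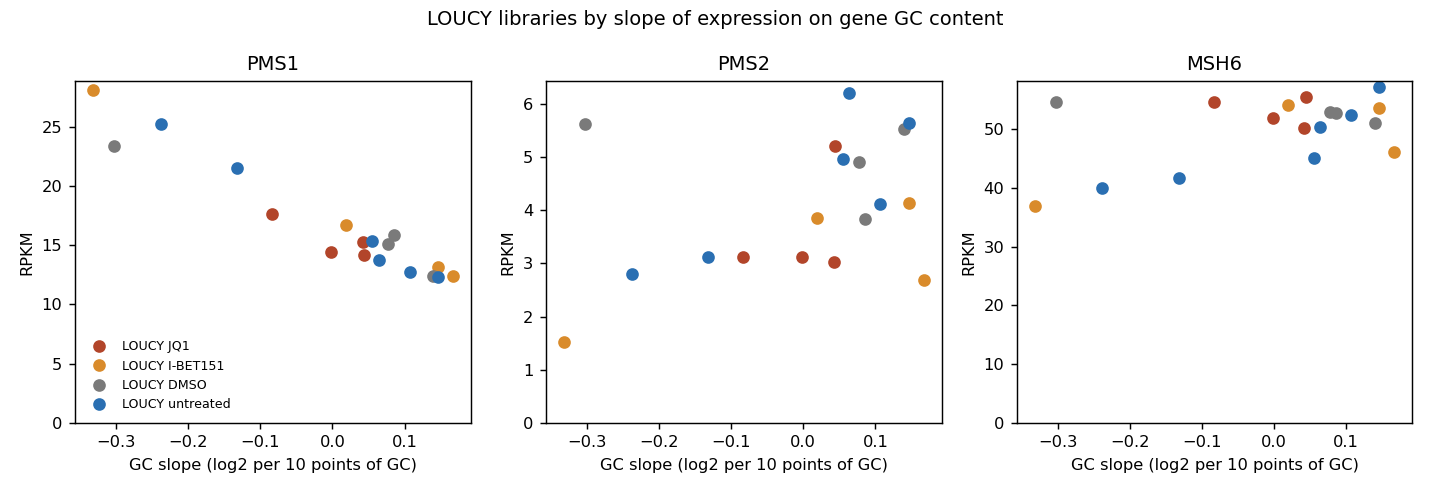
RPKM of PMS1, PMS2 and MSH6 in the 18 LOUCY libraries against GC slope, coloured by group. The slope is that of expression relative to the group mean on gene GC content (log2 per 10 points of GC). PMS1 reached 23.4 to 28.1 RPKM in the 3 libraries of steepest negative slope, and PMS2 with I-BET151 was lowest, at 1.52 RPKM, at a slope of -0.332.

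Genes beside the members were examined because the library method does not mark the strand, so reads from overlapping genes cannot be told apart. MSH6 (chr2:47783145-47810101, + strand) overlaps the end of FBXO11, a ubiquitin ligase subunit gene on the other strand, by 3182 bases in RefSeq. FBXO11 averaged 26.1 ± 9.96 RPKM in untreated LOUCY and 9.32 ± 2.90 RPKM in JURKAT (SD, n = 6 each), a log2 difference of 1.37 (SE 0.15; limma adjusted p = 6.56e-07). The pair thus moved the same way between the lines, the gap of MSH6 being the wider, and the share of the few MSH6 reads in JURKAT that came from FBXO11 was not tested.

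By RefSeq bounds PMS1 (chr2:189784450-189877629, + strand) starts 110 bases from ORMDL1, a regulator of sphingolipid synthesis on the other strand. By GENCODE exons the genes overlap: PMS1 exons cover all 300 bases of its start window, and an ORMDL1 exon covers 103 of them. The share of PMS1 reads that came from ORMDL1 was not tested. ORMDL1 averaged 92.0 ± 17.1 RPKM in untreated LOUCY and 106.7 ± 9.41 RPKM in JURKAT, a log2 difference of -0.23 (SE 0.09; limma adjusted p = 0.0387). PMS2 (chr7:5970925-6009106, - strand) starts 165 bases from AIMP2, a scaffold of the tRNA synthetase complex. AIMP2 averaged 42.9 ± 6.66 RPKM in untreated LOUCY and 66.2 ± 13.7 RPKM in JURKAT, a log2 difference of -0.60 (SE 0.09; limma adjusted p = 1.64e-05). In both of these pairs each gene was measured lower in LOUCY, but the members did not pass the test. MLH3 (chr14:75013775-75051467, - strand) lies 1408 bases from EIF2B2, a translation factor gene, and 1775 bases from ACYP1, an acylphosphatase gene. EIF2B2 differed by -0.034 (SE 0.09; limma adjusted p = 0.741) and ACYP1 by -0.77 (SE 0.14; limma adjusted p = 0.00018) on the log2 scale, opposite in sign to MLH3. None of these 5 neighbours was called with JQ1, with I-BET151, between the inhibitors or with DMSO.

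**Figure D4:**
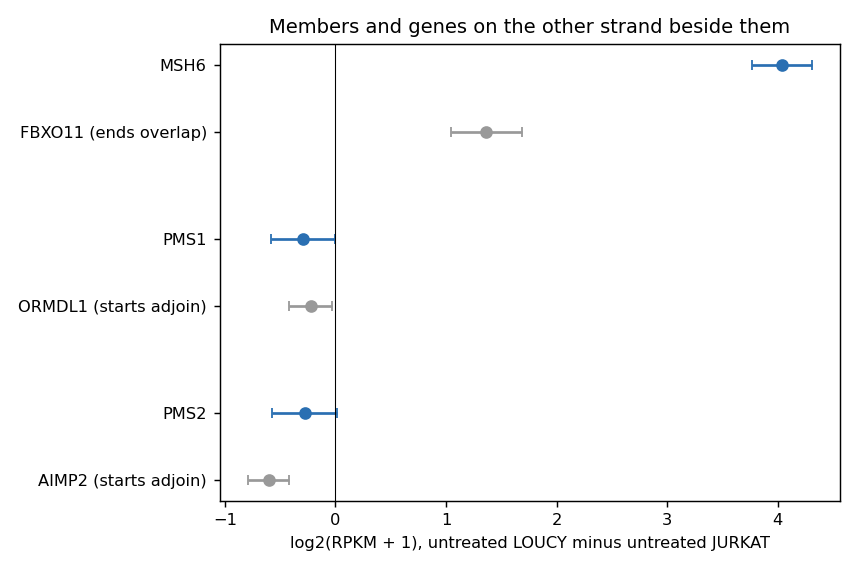
Difference of log2(RPKM + 1), untreated LOUCY minus untreated JURKAT, for 3 members (blue) and the gene on the other strand beside each (grey), with 95% intervals. MSH6 and FBXO11 were both higher in LOUCY, at 4.04 and 1.37, whereas PMS2 and AIMP2 were at -0.28 and -0.60.

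PMS2 has near-identical copies elsewhere on chromosome 7, and no source used here says how reads that match several copies were handled, so PMS2 and the copies are uncertain. PMS2CL averaged 2.30 ± 0.343 RPKM in untreated LOUCY and 0.749 ± 0.561 RPKM in JURKAT, a log2 difference of 0.97 (SE 0.16; limma adjusted p = 5.62e-05). Like MLH3, PMS2CL passed the filter through its LOUCY values, so its call is no separate evidence. PMS2P5 was higher in LOUCY by 0.85 (limma adjusted p = 0.000331) and PMS2P4 lower by -0.46 (limma adjusted p = 0.00278). PMS2P1 was the most abundant copy, at 21.1 ± 3.38 RPKM with JQ1, 19.9 ± 5.27 RPKM with I-BET151 and 30.9 ± 3.42 RPKM with DMSO (SD, n = 4 each). It fell with JQ1 by 0.54 (SE 0.14; limma adjusted p = 0.00733) and with I-BET151 by 0.64 (SE 0.14; limma adjusted p = 0.00202) on the log2 scale, and between the lines it differed by 0.010 (limma adjusted p = 0.937). PMS2P3 was under the filter in the fit of the lines. Of the 5 copies, PMS2P1 was the only one called with either inhibitor by limma.

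Downstream and accessory genes of mismatch repair were described from a list of 17, which included SSBP1, the gene of a mitochondrial protein. Between the lines 3 were higher in LOUCY, 9 lower and 5 not called, where 35.5% of all genes tested were higher and 37.5% lower, with a median log2 difference of -0.23 against -0.017 over all genes tested. EXO1, the exonuclease that removes the mismatched strand, averaged 19.8 ± 1.31 RPKM in untreated LOUCY and 30.6 ± 1.33 RPKM in JURKAT, a log2 difference of -0.60 (SE 0.07; limma adjusted p = 1.13e-06). PCNA, the sliding clamp, was not called, at 312.4 ± 38.9 RPKM in untreated LOUCY and 286.2 ± 40.9 RPKM in JURKAT (log2 difference 0.13; limma adjusted p = 0.303). RFC4, a subunit of the clamp loader, was lower in LOUCY by -0.67 (limma adjusted p = 9.93e-08). POLD3, a subunit of DNA polymerase delta, was lower by -0.73 (limma adjusted p = 1.78e-07), and RPA2, a subunit of the protein that coats single-stranded DNA, by -0.67 (limma adjusted p = 2.01e-07). HMGB1, RFC2 and RPA1 were the 3 called higher, at 0.60, 0.35 and 0.23 (limma adjusted p = 0.00356, 0.00224 and 0.00437).

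**Figure D5:**
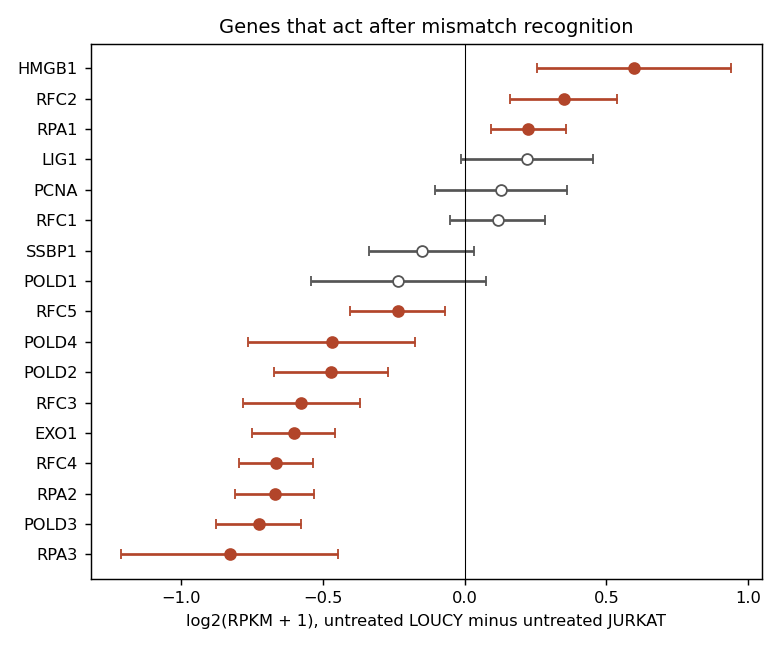
Difference of log2(RPKM + 1), untreated LOUCY minus untreated JURKAT, for the 17 downstream and accessory genes, with 95% intervals. Filled points mark a limma adjusted p under 0.05. HMGB1, RFC2 and RPA1 were called higher and 9 genes lower, among them EXO1 at -0.60, while PCNA at 0.13 was not called.

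With JQ1 1 of these 17 genes was called higher and 1 lower, and with I-BET151 1 higher and 0 lower, where 26.0% of all genes were called with JQ1 and 26.3% with I-BET151. POLD4, the small accessory subunit of DNA polymerase delta, averaged 20.5 ± 1.32 RPKM with JQ1, 17.5 ± 3.78 RPKM with I-BET151 and 11.4 ± 2.07 RPKM with DMSO (SD, n = 4 each). It rose by 0.81 with JQ1 (SE 0.15; limma adjusted p = 0.000648) and by 0.57 with I-BET151 (SE 0.15; limma adjusted p = 0.00957) on the log2 scale. SSBP1, the mitochondrial single-stranded DNA binding protein gene, fell by 0.38 with JQ1 (SE 0.13; limma adjusted p = 0.0299). The median log2 differences of the list were 0.022 with JQ1 and 0.020 with I-BET151, against -0.010 and 0.00 over all genes tested. EXO1 differed from DMSO by 0.19 with JQ1 and -0.090 with I-BET151, and PCNA by 0.011 with JQ1 and 0.082 with I-BET151, none of them called. Between the inhibitors and between DMSO and untreated LOUCY, limma called 0 of the 17.

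Relatives outside the core pathway were described beside the members. MCM9, a helicase-like protein linked to mismatch repair, averaged 4.10 ± 0.385 RPKM in untreated LOUCY and 2.99 ± 0.636 RPKM in JURKAT (log2 difference 0.37; SE 0.11; limma adjusted p = 0.00573). SETD2, which makes the H3K36me3 mark that MSH6 binds, averaged 8.72 ± 1.69 RPKM in untreated LOUCY and 7.13 ± 0.593 RPKM in JURKAT (log2 difference 0.24; SE 0.10; limma adjusted p = 0.0448). MSH4, a meiotic MutS gene, was under the filter and not tested, at 0.140 ± 0.0858 RPKM in untreated LOUCY and 0.570 ± 0.177 RPKM in JURKAT, with 0 to 5 reads per library in LOUCY and 6 to 13 in JURKAT. Neither MCM9 nor SETD2 was called in the comparisons within LOUCY.

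Mismatch repair genes are expressed most in replicating cells, so S-phase genes were counted beside them. Of 21 such genes, 8 were higher and 8 lower in LOUCY than in JURKAT, with a median log2 difference of -0.035, where 73.1% of all genes were called in either direction. TK1, a thymidine kinase gene, was higher by 1.19 (limma adjusted p = 2.21e-08) and CDT1, a replication licensing gene, was lower, at -1.35. MCM5, a subunit of the replicative helicase, was higher by 0.88, and RRM2, a subunit of ribonucleotide reductase, was lower, at -0.96 (limma adjusted p = 2.12e-09). With JQ1 TK1 rose by 1.04 and RRM2 by 0.58 (limma adjusted p = 7.79e-06 and 0.000168), and with I-BET151 TK1 rose by 0.95 (limma adjusted p = 2.55e-05). The remaining S-phase genes were not called with either inhibitor. Of 16 base excision repair genes tested, a separate repair pathway, 3 were higher and 7 lower in LOUCY, 2 rose and 3 fell with JQ1, and 2 rose and 6 fell with I-BET151. Over all genes 73.1% were called between the lines, 26.0% with JQ1 and 26.3% with I-BET151.

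Genes whose pattern was most like each member were found among 12332 genes, by the mean absolute difference in log2(RPKM + 1) over the 10 means of group and experiment, each gene being centred on its own mean. For MSH6 they were ZNF544 at 0.106, PHACTR3 at 0.161 and ACOT9 at 0.167. For MSH3 they were ZCCHC11 at 0.0594, RABGAP1L at 0.0718 and CBR4 at 0.0786. Those named for PMS1 were PUS7L at 0.0362 and UBE3A at 0.0674, and for PMS2 OGFOD1 at 0.0776, SUPT16H at 0.111 and ANP32C at 0.111. MLH3 was closest to FBXO8 at 0.0673, DNA2 at 0.0773 and PDE9A at 0.0907. Between members the closest pair was MSH3 and MLH3, at 0.137, followed by PMS1 and PMS2, at 0.304. The added 1 RPKM compresses the differences of MLH3 at its low levels, so its distances hold on this scale only. Between the untreated lines the ratio of means, LOUCY to JURKAT, was 1.88 for MSH3 and 6.99 for MLH3. The nearest genes of MSH6 lay farther from it than those of MSH3, PMS1 or MLH3 lay from theirs.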

How the data were processed

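The authors' deposited table gives RPKM values for 15862 genes in 24 libraries of polyadenylated RNA made by the Smart-seq2 method and Nextera XT tagmentation, per the labels' protocols. The build hg38 and the tools edgeR 3.10.5, Subread 1.4.5-p1 with featureCounts, and STAR 2.5.1b are named in the submitters' processing notes. No source used here gives the annotation, gene lengths or settings. Each gene's values were whole multiples of 1 read within 0.01 reads in 100% of genes, which gave the read counts behind each value.

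Here log2(RPKM + 1) was fitted with limma 3.58.1 in R 4.3.3 (additive experiment term, empirical Bayes with a mean-variance trend, two-sided). Genes with at least 1 RPKM in 4 libraries of a fit were kept. The call was a Benjamini-Hochberg adjusted p under 0.05 over all genes kept. The untreated lines were fitted on 12 libraries, and the other comparisons on the 18 LOUCY libraries. The code was tested on simulated data. The members and gene lists were chosen with earlier results of these data known. Named were the members, EXO1, PCNA, up to 4 other called repair genes with the smallest adjusted p, relatives, neighbours, PMS2 copies, up to 2 S-phase genes per direction and the 3 most alike genes per member; 1 neighbour and 1 alike gene are not reported here. HMGB1, RFC2 and RPA1 were named after their values were seen.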

Additional observations from a re-analysis of the deposited data

Results flagged for a closer look

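Of 25 sets of libraries tested for a lone value (5 genes in 5 groups), 2 held one far from the others, and chance gives about 1 in 20 such sets. PMS2 with JQ1 had 5.21 RPKM in replicate 1 of experiment 1 and 3.03 to 3.11 RPKM in the other 3 libraries, a gap of 0.960 of the group's range. MLH3 with DMSO had 2.63 RPKM in replicate 1 of experiment 2, a library of steep GC slope, and 1.74 to 1.84 RPKM in the other 3 libraries, a gap of 0.885 of the range.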

How the results depend on the processing

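MSH6 and MSH3 stayed higher in LOUCY and past the threshold in each setting in which they were tested. MLH3 did so too, but wherever a filter was used it was tested through its LOUCY values alone. Its calls there are no separate evidence. MLH3 could not be tested with a filter of 5 RPKM or in an experiment alone. The count of members called between the lines was 3, MLH3 among them, where 73.1% of all genes tested were called in the main fit. It became 5 with libraries scaled to the same median and 5 with voom on the recovered reads, where PMS1 and PMS2 passed. It became 4 with the GC trend removed and 4 with the libraries of steep slope left out, where PMS1 passed. With a filter of 5 RPKM it was 2, as MLH3 was not tested. Scaling to the same median moved the median of all genes to -0.099 and voom moved it to -0.118, against -0.017 in the main fit. The count was 3 to 4 when a library was left out. Shares of all genes called in these other settings were not compared, so the counts carry little information. The I-BET151 count was 1, where 26.3% of all genes tested were called in the main fit. It became 0 with no filter, with no experiment term, in experiment 1 alone, with the 3 libraries of steep slope left out and with voom. It was 0 to 1 when a library was left out, and the cause was not tested. The counts of 0 in the other comparisons held throughout. Voom and removal of the GC trend were chosen after seeing the data. The edgeR and DESeq2 alternatives were not run, since the values are RPKM.

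No reversed value was called. In experiment 1 alone the signs turned for PMS1 with JQ1 (0.030), for MSH6, MLH3 and PMS1 with I-BET151 (0.026, 0.019 and -0.057), for MSH6 and PMS2 in DMSO minus untreated LOUCY (-0.011 and -0.23), and for MSH3 and PMS1 in JQ1 minus I-BET151 (0.15 and 0.087). In experiment 2 alone they turned for MSH3 and MSH6 with JQ1 (-0.21 and -0.047), MSH3 with I-BET151 (-0.013), and MLH3 and PMS1 in DMSO minus untreated LOUCY (-0.10 and -0.24). With the 3 libraries of steep slope left out they turned for PMS1 with JQ1 (0.082), MLH3 and PMS1 with I-BET151 (0.031 and -0.039), MLH3, PMS1 and PMS2 in DMSO minus untreated LOUCY (-0.021, -0.042 and -0.012), and MSH3 and PMS1 in JQ1 minus I-BET151 (0.13 and 0.12). With voom MSH3 turned in JQ1 minus I-BET151 (0.0081).

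When a library was left out, the log2 differences with JQ1 ran from -0.067 to 0.18 for MSH3, -0.034 to 0.062 for MSH6 and -0.26 to 0.049 for PMS1. With I-BET151 they ran from -0.073 to 0.20 for MSH3 and -0.17 to 0.23 for PMS1. In DMSO minus untreated LOUCY they ran from -0.011 to 0.23 for MSH3, -0.061 to 0.065 for MLH3 and -0.13 to 0.18 for PMS1. In JQ1 minus I-BET151 they ran from -0.17 to 0.11 for MSH3, -0.19 to 0.033 for MLH3 and -0.31 to 0.093 for PMS1.

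Libraries with the same replicate number did not pair consistently: correlations of their deviations ran from -0.656 to 0.712 over 22 pairs, and 11 correlated best with their own number. In I-BET151 minus DMSO every pair correlated best with its own number. The correlations there were -0.321 and -0.196 in experiment 1 and 0.487 and 0.712 in experiment 2. In experiment 2 the GC slopes of replicate 1 were -0.332 with I-BET151 and -0.303 with DMSO. Those of replicate 2 were 0.167 and 0.14, and the part of GC slope in these correlations was not tested. With a replicate block, PMS1 turned to -0.073 in DMSO minus untreated LOUCY, PMS2 with I-BET151 stayed at -0.60 (limma adjusted p = 0.0319), and the members called between the lines were 3.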
